A study of Citrullus lanatus with 6 samples.

Results

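Dehydrin (ClCG07G008700) and galactinol synthase 6 (ClCG10G011650) are 2 genes of the watermelon leaf transcriptome, followed here out of 23568 genes with an FPKM value (the read count of a gene scaled to its length and to the total of the library). They were chosen by gene ID for their large difference between drought-stressed and control leaves, so that difference is given as a description and was not tested. RNA was sequenced from leaves of 3 drought-stressed and 3 control plants of the cultivar Crimson Sweet, 1 library per plant, at 8 days after initiation of the treatment (DAT). Drought-stressed pots were held at 35 ± 5% of water content by withholding water and control pots were watered to 95 ± 5%, and all plants were 89 days old. The plants differed in no other labelled factor, and reads were mapped to the genome of another cultivar, Charleston Gray.

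Dehydrins are very hydrophilic proteins of the late embryogenesis abundant (LEA) class, which build up in seeds as they dry and in vegetative tissue that loses water, where they are thought to protect membranes and enzymes. Galactinol synthase joins UDP-galactose to myo-inositol and so makes galactinol, the galactosyl donor from which raffinose and then stachyose are made. These sugars act as protective solutes under water deficit, and in cucurbits stachyose and raffinose are also transport sugars that are made in the companion cells of leaf veins and carried in the phloem. Plants have several galactinol synthase genes, some of them tied to transport and others to stress.

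The libraries held 17907062 to 22351455 counts each. Among the controls, replicate 2 stood apart: 13.6% of the 16318 tested genes were at least 2-fold lower in it than in both other control plants, and 8.88% at least 2-fold higher. Levels were read for 8 leaf marker genes (chlorophyll a-b binding proteins and Rubisco activase). They were taken by description, mostly from the study's tables of called genes. Their detection was thus given in advance, and leaf identity was not tested. Of these, ClCG03G006930 and ClCG10G011800 were at or under 0.552 FPKM in every drought-stressed leaf. The summed level of all 8 was 8615 to 11851 FPKM in drought-stressed leaves and 13011 to 47860 FPKM in control leaves, the lowest control value being that of control replicate 2. The sum is carried by the chlorophyll a-b binding genes. The most abundant of these, ClCG01G024370, had overlapping groups (adjusted p = 0.176 from edgeR). Rubisco activase (ClCG11G006730) instead had 852, 1105 and 1263 FPKM in drought-stressed leaves, against 437, 254 and 504 FPKM in control leaves (adjusted p = 0.132 from edgeR). Of 6 markers tested, 1 was called lower and 0 higher, beside 8.08% of all tested genes called lower and 5.31% higher. In such bulk samples, fewer cells of a type and less RNA per cell cannot be told apart.

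The dehydrin gene lies on the plus strand of chromosome 7, from 22953861 to 22960002 in the Charleston Gray genome. It spans 6142 bases, of which the annotation counts 948 bases as gene length. The galactinol synthase 6 gene lies on the plus strand of chromosome 10, from 25462164 to 25465478, a span of 3315 bases with a gene length of 1248 bases. Neither overlaps another gene of the count table. The nearest genes with counts lay 20901 and 14476 bases from dehydrin (ClCG07G008680 and ClCG07G008710) and 23182 and 10861 bases from galactinol synthase 6 (ClCG10G011640 and ClCG10G011660). None of these 4 neighbours was called different between drought-stressed and control leaves, their log2 fold changes being -0.31, 0.48, -0.02 and 0.08 (adjusted p = 0.712, 0.425, 0.987 and 0.874 from edgeR). No sequence of either gene was used here.

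Dehydrin transcripts were at a low but countable level in watered leaves and among the abundant ones under drought. The drought-stressed plants had 200.1, 584 and 221 FPKM in replicates 1, 2 and 3, against 5.93, 8.42 and 2.70 FPKM in control replicates 1, 2 and 3. These values rest on 4210, 12369 and 4435 counts in the drought-stressed libraries and on 118, 143 and 56 counts in the control libraries. The groups did not overlap, and the lowest drought-stressed plant was 23.8-fold above the highest control plant by FPKM and 25.7-fold on TMM-scaled counts. Of all tested genes, 19.9% had non-overlapping groups with drought higher, 18.5% with drought lower and 38.4% in either direction, and 13.4% were called different. The means were 335 ± 216 FPKM in drought-stressed leaves and 5.69 ± 2.87 FPKM in control leaves (SD, n = 3 each). Fitted by edgeR across all genes, the log2 fold change was 5.74 (SE 0.59), and 5.13 to 6.01 when any 1 library was left out.

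Galactinol synthase 6 was scarce in watered leaves and stood above dehydrin under drought. It had 506, 1109.9 and 392 FPKM in drought-stressed replicates 1, 2 and 3, against 0.916, 0.179 and 1.65 FPKM in control replicates 1, 2 and 3. The counts were 14024, 30959 and 10332 in the drought-stressed libraries, and 24, 4 and 45 in the control libraries. The lowest drought-stressed plant was 237-fold above the highest control plant by FPKM and 187-fold on TMM-scaled counts. The means were 669 ± 386 FPKM in drought-stressed leaves and 0.915 ± 0.736 FPKM in control leaves (SD, n = 3 each). The fitted log2 fold change was 9.18 (SE 1.03), and 8.65 to 10.04 when any 1 library was left out, the highest being without control replicate 3, which held 45 of the 73 control counts.

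**Figure D1:**
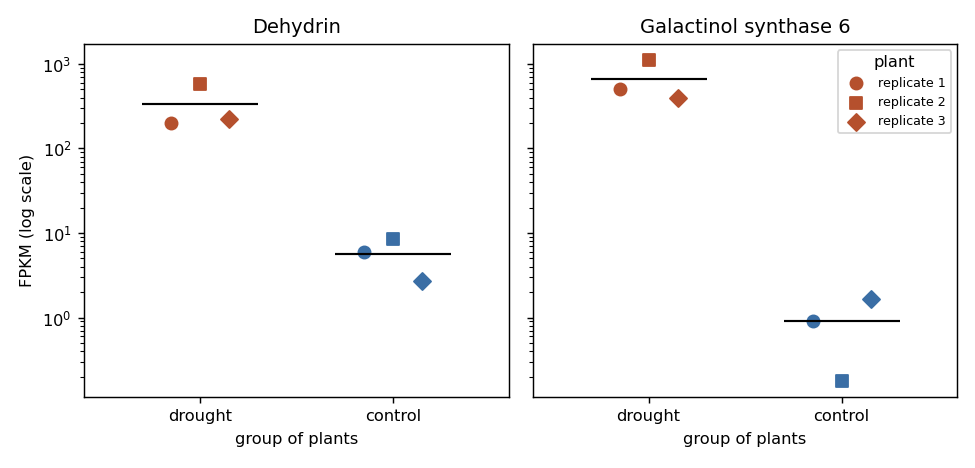
FPKM of dehydrin (left) and galactinol synthase 6 (right) in each plant, on a log scale, with drought-stressed plants left of control plants and a bar at the mean of the 3 plants of a group. Drought-stressed plants lay at 200.1 FPKM or more for dehydrin and at 392 FPKM or more for galactinol synthase 6, and no control plant exceeded 8.42 FPKM.

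The control floor can be bounded from counting error alone. Galactinol synthase 6 made up 1.14, 0.223 and 2.06 CPM (counts scaled to the library total) in control replicates 1, 2 and 3, with exact 95% binomial intervals (Clopper-Pearson) of 0.733 to 1.70, 0.0609 to 0.572 and 1.502 to 2.76. The interval of control replicate 2 overlapped neither of the others. These intervals cover counting error only, and libraries of separate plants differed by more than that over all genes. Dehydrin made up 5.62, 7.99 and 2.56 CPM, with intervals of 4.65 to 6.73, 6.73 to 9.41 and 1.94 to 3.33, of which that of control replicate 3 lay below both others. Neither gene had a count of 0 in any library, so a bound for such a count is given for scale only. This one-sided bound, 3 counts over the library total, was 0.137 to 0.168 CPM in the control libraries, below every value of both genes. A two-sided exact bound for a count of 0 would lie higher.

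Both genes stood near the top of the transcript list under drought and in its middle or lower part in watered leaves. By FPKM, galactinol synthase 6 held rank 165, 76 and 239 among all genes in drought-stressed replicates 1, 2 and 3, against rank 15184, 17252 and 13692 in control replicates 1, 2 and 3. Dehydrin held rank 466, 152 and 450 in the drought-stressed libraries, against rank 10284, 9819 and 12458 in the control libraries. Between 17874 and 18107 genes were detected per library, so that galactinol synthase 6 stood within the top 1.32% of detected genes in every drought-stressed library and at 76.6 to 95.5% of that list in the control libraries. Dehydrin stood within the top 2.60% under drought and at 54.4 to 69.7% of the list in the controls. The order of the 2 genes was thus turned round: galactinol synthase 6 ranked above dehydrin in all 3 drought-stressed plants and below it in all 3 control plants. By group means the ranks were 126 under drought and 15395 in the control for galactinol synthase 6, and 278 under drought and 10914 in the control for dehydrin. Without drought-stressed replicate 2 the rank by mean under drought was 455 for dehydrin and 199 for galactinol synthase 6.

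**Figure D2:**
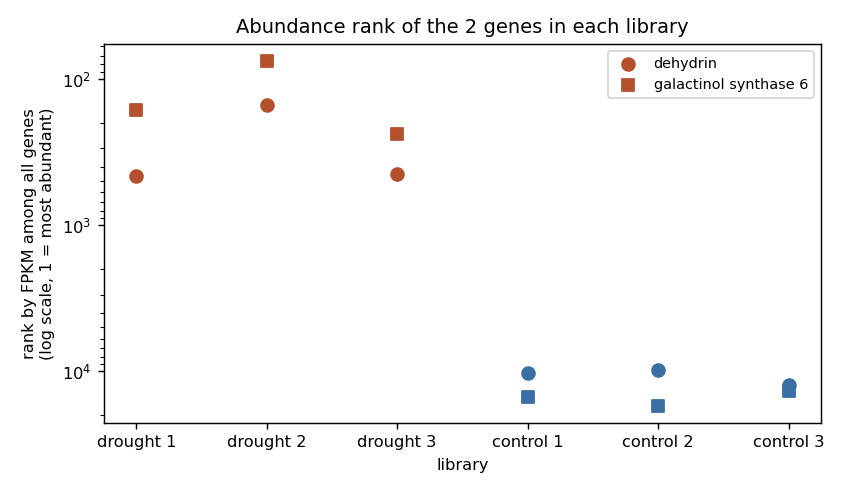
Rank by FPKM of dehydrin (circles) and galactinol synthase 6 (squares) among all genes of each library, on a log scale with the most abundant gene at the top. The drought-stressed libraries (left) hold ranks 76 to 466 and the control libraries (right) ranks 9819 to 17252, with the order of the 2 genes turned round between them.

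By the size of the fitted log2 fold change, galactinol synthase 6 was at position 12 and dehydrin at position 47 of the 866 genes called higher in drought-stressed leaves. The genes next to them in that order were ClCG03G003590 and Novel00696 at 9.33 and 8.80 around galactinol synthase 6. Around dehydrin they were a glycine-rich protein-like gene (ClCG06G000410) and an ATP-dependent zinc metalloprotease FtsH (ClCG09G018210), at 5.91 and 5.70.

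Within the drought-stressed plants, replicate 2 was the highest for both genes. It had 2.64 times the median FPKM of the 3 plants for dehydrin and 2.19 times the median for galactinol synthase 6. The ratio of galactinol synthase 6 to dehydrin was 2.53, 1.90 and 1.77 in drought-stressed replicates 1, 2 and 3, a narrower spread than that of either gene. Replicates 1 and 3 were close together and changed places: replicate 3 was above replicate 1 for dehydrin (221 and 200.1 FPKM) and below it for galactinol synthase 6 (392 and 506 FPKM). A plant at least 2-fold above both others on TMM-scaled counts, as replicate 2 was for both genes, was found in that library for 2.54% of all tested genes and for 2.89% of the 866 genes called higher. With 3 plants no correlation was computed.

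In the watered plants the 2 genes did not keep the same order of plants. Control replicate 2 had the most dehydrin (8.42 FPKM) and the least galactinol synthase 6 (0.179 FPKM), whereas control replicate 3 had the least dehydrin (2.70 FPKM) and the most galactinol synthase 6 (1.65 FPKM). On TMM-scaled counts these orders stayed, but dehydrin was close in control replicates 1 and 2, at 6.35 and 6.95 CPM. The ratio of galactinol synthase 6 to dehydrin was 0.154, 0.0212 and 0.610 in control replicates 1, 2 and 3, below the lowest drought-stressed ratio of 1.77. The lowest of these ratios rests on 4 counts of galactinol synthase 6.

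The second gene described as a galactinol synthase, ClCG05G025390, had 120, 98.3 and 186 FPKM in drought-stressed replicates 1, 2 and 3, against 304, 285 and 795 FPKM in control replicates 1, 2 and 3. The groups did not overlap, in the direction opposite to galactinol synthase 6, but the difference missed the threshold (log2 fold change -2.04, SE 0.58, adjusted p = 0.0600 from edgeR; the 11 alternatives gave 0.0024 to 0.196). It passed without control replicate 2, with libraries paired by replicate number and by DESeq2 (adjusted p = 0.0135, 0.0204 and 0.0024). Galactinol synthase 6 accounted for 80.8, 91.9 and 67.8% of the summed FPKM of the 2 genes in drought-stressed replicates 1, 2 and 3, against 0.300, 0.0628 and 0.207% in control replicates 1, 2 and 3. The summed FPKM itself was 627, 1208 and 578 in the drought-stressed plants and 305, 285 and 796 in the control plants. These sums overlapped, since control replicate 3 lay above drought-stressed replicates 1 and 3. Other galactinol synthase genes may be present without a description at hand.

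Dehydrin stood beside a second, much more abundant gene described as cold dehydrin (ClCG10G015940). Cold dehydrin had 2006, 2246 and 1774 FPKM in drought-stressed replicates 1, 2 and 3, against 558, 1393 and 660 FPKM in control replicates 1, 2 and 3. The groups did not overlap, but cold dehydrin missed the threshold (log2 fold change 1.09, SE 0.32, adjusted p = 0.0667 from edgeR). The 11 alternatives gave 0.00480 to 0.201, with 0.00649 without control replicate 2 and 0.00480 by DESeq2. Dehydrin made up 9.07, 20.6 and 11.1% of the summed FPKM of both genes in drought-stressed replicates 1, 2 and 3, against 1.05, 0.601 and 0.408% in control replicates 1, 2 and 3. Cold dehydrin was thus the more abundant of the pair in every library.

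**Figure D3:**
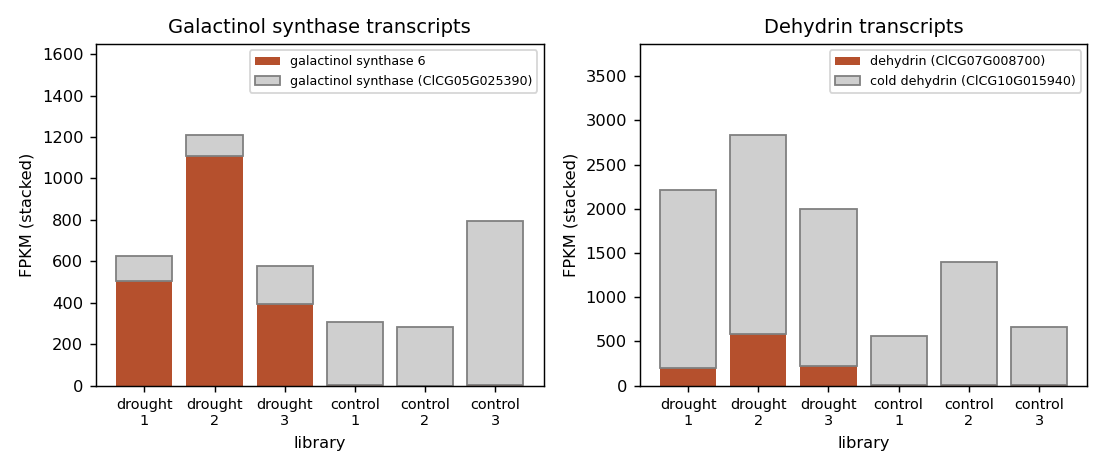
Stacked FPKM of galactinol synthase 6 and the other gene described as galactinol synthase (left), and of dehydrin and cold dehydrin (right), in each library, with drought-stressed libraries left of control libraries. Galactinol synthase 6 makes up 67.8 to 91.9% of its bar under drought and at most 0.300% in the controls, whereas dehydrin stays at or under 20.6% of its bar.

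The other genes described as LEA proteins, which like dehydrin are known from drying tissue, mostly had higher levels under drought. Of 6 such genes, 5 passed the filter on low counts, and 2 rose and 1 fell at an adjusted p under 0.05 from edgeR, where 5.31% of all tested genes were called higher and 8.08% lower. Their median log2 fold change was 3.28, against -0.03 over all tested genes. The descriptions come mostly from the study's own tables of called genes, so neither this list nor any list of genes below describes a whole family, and neither their counts nor their directions are independent evidence. Every tested gene of the 6 lists had an unadjusted p under 0.05 in edgeR, as had 5140 of the 16318 tested genes. LEA group 8 (ClCG01G017300) rose to 131, 169 and 146 FPKM in drought-stressed replicates 1, 2 and 3, against 16.9, 8.89 and 13.1 FPKM in control replicates 1, 2 and 3 (log2 fold change 3.28, SE 0.36, adjusted p = 0.00491 from edgeR). This call held under all 11 alternatives.

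The pair described as LEA D-34 was scarcer. ClCG03G016270 rose to 13.3 ± 3.07 FPKM in drought-stressed leaves, against 0.856 ± 0.979 FPKM in control leaves (SD, n = 3 each), and its fitted difference was 3.66 on the log2 scale (SE 0.95, adjusted p = 0.0467 from edgeR). ClCG09G007190 had 4.70 ± 1.71 and 0.317 ± 0.298 FPKM in drought-stressed and control leaves (SD, n = 3 each) and missed the threshold (log2 fold change 3.64, SE 0.98, adjusted p = 0.0515 from edgeR). ClCG02G017970, which was too scarce to be tested, had 12, 26 and 8 counts in the drought-stressed libraries and no count in any control library. The gene of the LEA 3 family, ClCG09G005640, fell to 475, 319 and 422 FPKM in drought-stressed replicates 1, 2 and 3, against 839, 1891 and 1355 FPKM in control replicates 1, 2 and 3 (log2 fold change -1.90, SE 0.37, adjusted p = 0.0224 from edgeR). Drought-stressed replicate 2, the highest plant for both dehydrin and galactinol synthase 6, was also the highest drought-stressed plant for 5 of these 6 genes and the lowest for the other, the LEA 3 gene. It was the highest drought-stressed plant for 35.9% of all tested genes and for 47.5% of those called higher. The call of ClCG03G016270 was lost without control replicate 1 or drought-stressed replicate 1, 2 or 3 (adjusted p = 0.0748, 0.126, 0.134 and 0.127 from edgeR), and that of the LEA 3 gene without drought-stressed replicate 1, 2 or 3 (0.0882, 0.110 and 0.113). ClCG09G007190 passed without control replicate 3, with paired libraries, with library totals and by DESeq2 (0.0426, 0.0472, 0.0448 and 0.000475). Without control replicate 2, 4 genes of the list were called higher. Oleosin (ClCG01G013390), the single seed marker with a description, had 2.32, 1.47 and 0.947 FPKM in drought-stressed replicates 1, 2 and 3, against 0, 0.240 and 0 FPKM in control replicates 1, 2 and 3 (adjusted p = 0.0544 from edgeR), and its part in these results was not tested.

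A separate family, the hydroxyproline-rich glycoproteins that share the LEA name and include relatives of the membrane proteins NDR1 and HIN1 of Arabidopsis, had mostly lower levels under drought. Of 11 such genes 10 were tested, of which 1 rose and 7 fell, with a median log2 fold change of -3.07, beside 5.31% of all tested genes called higher and 8.08% lower. The lowest adjusted p belonged to ClCG02G022400, which fell to 7.65, 6.05 and 3.79 FPKM in drought-stressed replicates 1, 2 and 3, against 136, 128 and 118 FPKM in control replicates 1, 2 and 3 (log2 fold change -4.64, SE 0.32, adjusted p = 0.00295 from edgeR). ClCG08G016040 fell to 0.439 ± 0.161 FPKM in drought-stressed leaves, against 28.7 ± 18.8 FPKM in control leaves (SD, n = 3 each), and ClCG03G014140 to 0.561 ± 0.197 FPKM, against 25.1 ± 22.7 FPKM (SD, n = 3 each), with adjusted p = 0.00493 and 0.0108 from edgeR. The call of ClCG03G014140 was lost without drought-stressed replicate 1, 2 or 3 (0.0596, 0.0527 and 0.0561), and those of the other named genes held under all 11 alternatives. The single member that rose was ClCG06G003400, named after its values were seen, with 7.59, 23.2 and 11.1 FPKM in drought-stressed plants, against 0.899, 2.11 and 2.71 FPKM in control plants. The 7 genes called lower became 2 without any 1 drought-stressed replicate and 3 without control replicate 1, and the gene called higher was called in none of these 4 fits. Without control replicate 2, 8 were called lower.

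Downstream of galactinol, 3 genes are described as stachyose synthases, which pass the galactosyl group of galactinol on to raffinose, and 1 of them fell, 1 rose and 1 missed the threshold. Over all tested genes, 5.31% were called higher and 8.08% lower. ClCG09G004970 fell to 66.9, 34.2 and 38.7 FPKM in drought-stressed replicates 1, 2 and 3, against 474, 118 and 673 FPKM in control replicates 1, 2 and 3 (log2 fold change -3.48, SE 0.77, adjusted p = 0.0306 from edgeR). ClCG10G013980, the most abundant of the 3, had 261, 136 and 200.4 FPKM in the drought-stressed plants, against 740.2, 315 and 1066 FPKM in the control plants. Its groups did not overlap, but it missed the threshold (log2 fold change -2.10, SE 0.62, adjusted p = 0.0644 from edgeR). The 11 alternatives gave 0.00157 to 0.215, with 0.00447 without control replicate 2 and 0.00157 by DESeq2. ClCG01G013370 rose to 3.43, 3.44 and 2.33 FPKM in the drought-stressed plants, against 0.132, 0.374 and 0.469 FPKM in the control plants (log2 fold change 3.03, SE 0.54, adjusted p = 0.0168 from edgeR). It thus rose at a level far below that of the other stachyose synthases.

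Of the 4 genes of raffinose sugars other than galactinol synthase 6, 1 was therefore called higher and 1 lower, beside 5.31% of all tested genes called higher and 8.08% lower. When the libraries were paired by replicate number 2 were lower, and 3 were lower without control replicate 2. The call of ClCG09G004970 was lost without control replicate 1 or drought-stressed replicate 1, 2 or 3 (adjusted p = 0.0883, 0.0959, 0.123 and 0.132 from edgeR), and that of ClCG01G013370 without drought-stressed replicate 1, 2 or 3 (0.0720, 0.0679 and 0.0670). In contrast to dehydrin and galactinol synthase 6, drought-stressed replicate 2 was the lowest drought-stressed plant for 3 of the 4. For the other, ClCG01G013370, it was level with drought-stressed replicate 1, at 3.44 and 3.43 FPKM. Phloem protein 2 (ClCG01G009230), a phloem lectin and the single phloem marker with a description, was lower under drought, with 67.5, 40.3 and 50.9 FPKM in drought-stressed replicates 1, 2 and 3, against 133, 116 and 181 FPKM in control replicates 1, 2 and 3. Its part in these results was not tested.

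The alpha-galactosidases, which take galactose off raffinose and stachyose again, rose under drought for 3 of 4 genes and fell for 1, where 5.31% of all tested genes were called higher and 8.08% lower. Alkaline alpha galactosidase 3 (ClCG06G011490) rose to 351, 472 and 312 FPKM in drought-stressed replicates 1, 2 and 3, against 99.3, 125 and 85.7 FPKM in control replicates 1, 2 and 3 (log2 fold change 1.70, SE 0.29, adjusted p = 0.0145 from edgeR). Of the pair described as alkaline alpha galactosidase I, ClCG06G017500 rose (log2 fold change 0.93, SE 0.18, adjusted p = 0.0225 from edgeR) and ClCG11G017930 fell (log2 fold change -2.22, SE 0.47, adjusted p = 0.0272 from edgeR). None of the 4 alpha-galactosidases was called without drought-stressed replicate 1, 2 or 3 or without control replicate 1, and ClCG11G017930 was not called without control replicate 3 either (adjusted p = 0.0501 from edgeR).

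Among 7 genes that supply sucrose or UDP-galactose, 1 rose and 2 fell, again beside 5.31% of all tested genes called higher and 8.08% lower. Sucrose synthase ClCG10G011100, which splits sucrose into UDP-glucose and fructose, rose to 26.4, 57.7 and 37.9 FPKM in drought-stressed replicates 1, 2 and 3, against 5.19, 7.17 and 2.74 FPKM in control replicates 1, 2 and 3 (log2 fold change 2.88, SE 0.37, adjusted p = 0.00710 from edgeR). Drought-stressed replicate 2 was the highest drought-stressed plant for this gene, as for dehydrin and galactinol synthase 6, but for no other of the 7, and it was the lowest for 4. Sucrose-phosphate synthase (ClCG11G008300), an enzyme of sucrose synthesis, fell to 1.99 ± 0.529 FPKM in drought-stressed leaves, against 14.0 ± 2.38 FPKM in control leaves (SD, n = 3 each; log2 fold change -2.98, SE 0.26, adjusted p = 0.00349 from edgeR). Both calls held under all 11 alternatives. The other genes described as sucrose synthase missed the threshold and went opposite ways. ClCG01G008480 had 19.1, 14.6 and 6.39 FPKM in the drought-stressed plants, against 13.6, 128 and 112 FPKM in the control plants (log2 fold change -2.82, SE 0.80, adjusted p = 0.0588 from edgeR). ClCG03G014760 was higher under drought (log2 fold change 2.49, SE 0.86, adjusted p = 0.0979 from edgeR). UDP-glucose 4-epimerase ClCG01G025410, which turns UDP-glucose into the UDP-galactose that galactinol synthase uses, fell by 1.81 on the log2 scale (SE 0.46, adjusted p = 0.0431 from edgeR). That call was lost without control replicate 1, without drought-stressed replicate 1, 2 or 3 and with library totals (0.0932, 0.148, 0.145, 0.133 and 0.0808). Without control replicate 2, 2 genes of this group were called higher and 4 lower, and without any 1 drought-stressed replicate 1 was called lower.

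**Figure D4:**
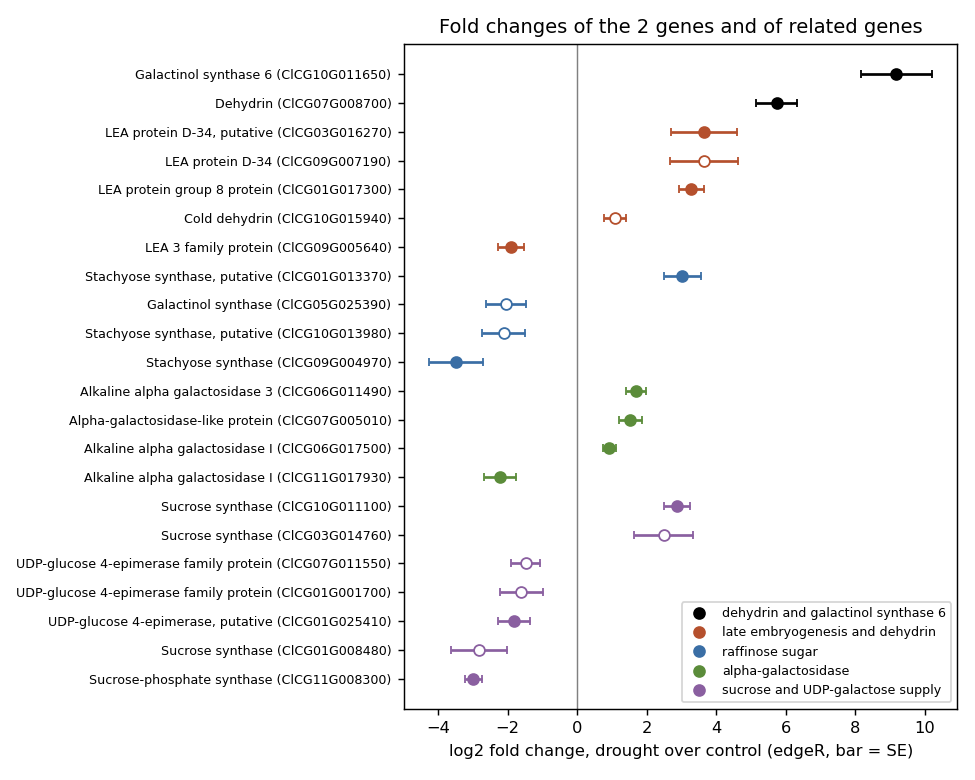
Log2 fold change of drought-stressed over control leaves, with its SE from edgeR, for dehydrin and galactinol synthase 6 (black, shown as a description) and for the tested genes of 4 groups, where open circles did not pass at an adjusted p of 0.05. Galactinol synthase 6 lies at 9.18 and dehydrin at 5.74, both chosen for a large difference, and the tested genes of these 4 groups lie between -3.48 and 3.66.

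Heat stress transcription factors and DREB proteins are families with members known in Arabidopsis to act on galactinol synthase or dehydrin genes. Of 7 genes described as belonging to them, 3 were called higher and 1 lower, beside 5.31% of all tested genes called higher and 8.08% lower. When the libraries were paired 2 were lower, and 4 were higher and 3 lower without control replicate 2. Heat stress transcription factor A-5 (ClCG11G002480) rose to 488, 536 and 292 FPKM in drought-stressed replicates 1, 2 and 3, against 18.5, 55.4 and 11.99 FPKM in control replicates 1, 2 and 3 (log2 fold change 3.87, SE 0.53, adjusted p = 0.00833 from edgeR), and this call held under all 11 alternatives. Heat stress transcription factor A-2 (ClCG08G017080) rose to 22.1, 37.1 and 25.3 FPKM in the drought-stressed plants, against 2.72, 2.45 and 6.56 FPKM in the control plants (log2 fold change 2.57, SE 0.52, adjusted p = 0.0232 from edgeR). Heat shock transcription factor A2 (ClCG11G001700) had 30, 73 and 11 counts in the drought-stressed libraries and no count in any control library, and was called higher (adjusted p = 0.0328 from edgeR). The last 2 calls were lost without control replicate 1 and without any 1 drought-stressed replicate (adjusted p = 0.0699 to 0.0893 for ClCG08G017080 and 0.0793 to 0.114 for ClCG11G001700). The gene called lower was heat stress transcription factor B-4 (ClCG05G007930), with 10.3, 10.6 and 7.88 FPKM in the drought-stressed plants, against 22.9, 29.0 and 9.72 FPKM in the control plants (log2 fold change -1.23, SE 0.32, adjusted p = 0.0472 from edgeR). No gene of the group was called lower in those 4 fits, with library totals or without a filter on low counts. The DREB gene with a description, DREB 1B (ClCG01G005660), had 0, 0 and 7 counts in the drought-stressed libraries, against 49, 21 and 131 counts in the control libraries. It lay in the direction opposite to dehydrin and galactinol synthase 6 and missed the threshold (log2 fold change -5.07, SE 1.41, adjusted p = 0.0563 from edgeR). Whether any gene of this group acts on dehydrin or galactinol synthase 6 was not tested.

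The genes closest to each gene in profile were taken as those with the smallest root mean square difference of log2(CPM + 1) over the 6 libraries, each profile being centred on its own mean (here CPM scaled to the TMM-adjusted library total). This difference includes the gap between drought-stressed and control leaves, for which the 2 genes were chosen. Nearness thus also reflects a fold change of like size, and joint expression was not tested. For galactinol synthase 6 the 5 closest of 16317 genes were a 70 kDa heat shock protein (ClCG11G011300, difference 0.52), a small class II heat shock protein (ClCG05G018130, 0.75), a small class I heat shock protein-like model (Novel00340, 0.79), a glycine-rich protein (ClCG06G012810, 0.91) and an acetylornithine deacetylase (ClCG09G012030, 1.01). The 70 kDa heat shock protein, a chaperone, had 7969, 23686 and 9931 counts in drought-stressed replicates 1, 2 and 3, against 37, 21 and 58 counts in control replicates 1, 2 and 3. As in galactinol synthase 6, replicate 2 was the highest of the drought-stressed plants and the lowest of the control plants. The choice by profile over the same libraries favours such a shared order. Of the other closest genes, ClCG05G018130 shared it, and Novel00340, ClCG06G012810 and ClCG09G012030 did not. The same 5 genes were closest with pseudocounts of 0.5 and 2.

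For dehydrin the closest genes were an aquaporin-like protein (ClCG01G014680, difference 0.37), the FtsH metalloprotease ClCG09G018210 (0.38), a small class IV heat shock protein (ClCG02G006430, 0.38), protein TIFY 5A (ClCG03G006720, 0.48) and ClCG09G012920 (0.51). FtsH proteases of plants degrade damaged membrane proteins in chloroplasts and mitochondria. FtsH ClCG09G018210 had 10511, 35165 and 23644 counts in drought-stressed replicates 1, 2 and 3, against 322, 529 and 242 counts in control replicates 1, 2 and 3. Replicate 2 was the highest in both groups, as for dehydrin, an order that the choice by profile favours. The other 4 genes had at most 10 counts in any control library, so their nearness depended on the pseudocount, and 2 and 3 of the 5 stayed closest with pseudocounts of 0.5 and 2, FtsH among them each time. Galactinol synthase 6 was itself at position 147 by nearness to dehydrin, and dehydrin at position 16 by nearness to galactinol synthase 6, at a difference of 1.66. These positions too depend on the size of the fold changes.

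**Figure D5:**
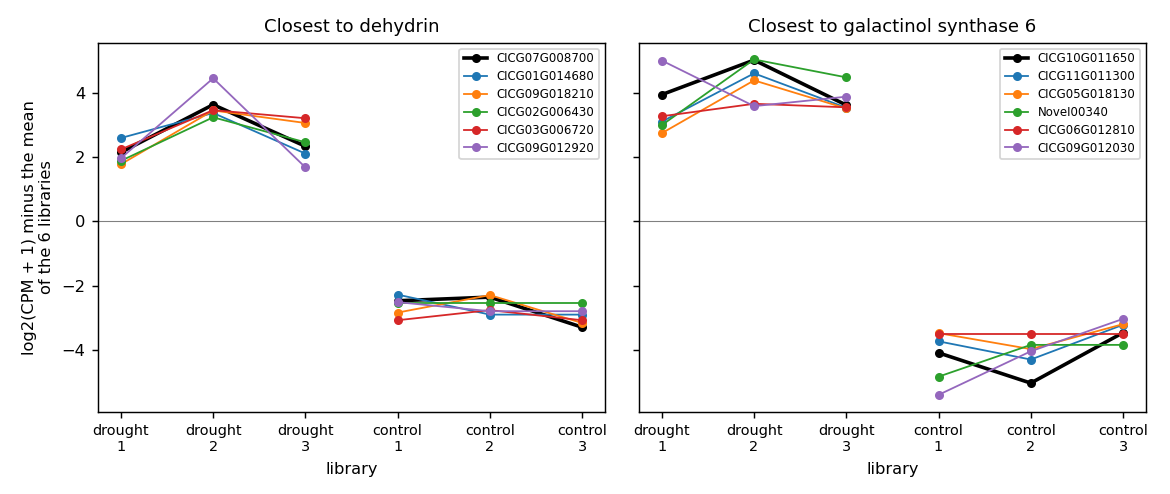
Centred log2(CPM + 1) of dehydrin (left, black) and galactinol synthase 6 (right, black) and of the 5 genes closest to each (coloured), with drought-stressed libraries left of control libraries; lines join the values of 1 gene and carry no order of plants. Galactinol synthase 6 lies at 3.94, 5.01 and 3.61 in drought-stressed replicates 1, 2 and 3 and at -4.08, -5.02 and -3.46 in control replicates 1, 2 and 3.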

How the data were processed

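The authors deposited read counts per gene, FPKM values, and normalized counts (a signal in which each count is divided by 1 size factor per library) for 6 leaf libraries mapped to the Charleston Gray genome. Sources differ on the tools: TopHat and HTSeq stand in the published methods, and the submitters' processing notes list fastp, HISAT2 2.1.0, featureCounts and DESeq2. The deposited FPKM equal count over gene length and library total within 1% for 98.7% of the values above 0, and for both genes of this report. A log2 fold change, a p-value and an adjusted p-value per gene, which the authors computed for drought over control, were left unused, as were the normalized counts. Drought columns, named TT1, were matched to the samples titled DT by replicate number.

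Counts were tested with edgeR 4.0.16 (R 4.3.3) by the quasi-likelihood test after TMM scaling and filterByExpr (minimum count 10, minimum total 15), with condition as the factor, two-sided, with Benjamini-Hochberg adjustment over 16318 of 19742 genes and a threshold of 0.05. SE was obtained by dividing the fitted log2 difference by the root of its F value. The test was also run on counts simulated from the means of these data with the same dispersion for every gene. That run does not show how the test performs at the spread between these plants. Of the 16318 genes tested, 2185 were called (13.4%). Alternatives were other scalings, no filter, DESeq2 1.42.0, a replicate block and leaving out each library, 11 in all. Replicate numbers are shared between groups by the labels, and deviations of same-numbered libraries correlated at 0.148, 0.430 and 0.130, so the block was read as a pairing, though no source names a shared block. The replicates are separate plants.

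The members and gene lists were chosen with earlier results of these data known. Lists were made by gene ID from the descriptions of the study's tables of called genes and of the deposited table, at hand for 3554 tested genes. Named are both genes, all genes of the LEA and raffinose sugar lists, up to 3 genes with the lowest p of each other list, the 5 closest profiles, and the nearest genes by position and by fold change. ClCG06G003400, ClCG05G007930, ClCG01G005660, ClCG01G008480, ClCG03G014760 and the marker genes fall outside this rule and were named after their values were seen. The library kit does not mark strand, and related genes may share reads.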

Additional observations from a re-analysis of the deposited data

How the results depend on the processing

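The log2 fold changes of dehydrin and galactinol synthase 6 kept their direction under all 11 alternatives: 5.72 and 9.15 by DESeq2, 5.88 and 9.49 with library totals, 5.67 and 9.27 with the replicate block, and 5.13 to 6.01 and 8.65 to 10.04 when 1 library was left out, the lowest without drought-stressed replicate 2 for both. Both contrasts chose the genes, so this is no evidence of their size. Over 21 other named genes, 177 of the values under an alternative kept their direction and side of the threshold, 43 lost the call, 11 gained it and 0 reversed.

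Counts of called genes depended on the settings, and the cause was not tested. By DESeq2, 1635 genes were called higher and 2485 lower, and with library totals 858 lower. Leaving out 1 library gave 150 to 1884 higher and 164 to 2473 lower, the least without drought-stressed replicate 3 and the most without control replicate 2. By DESeq2, 4 LEA genes were higher, 3 raffinose sugar genes lower, 2 supply genes higher and 5 lower, and 3 transcription factors lower. With the replicate block, 2 raffinose sugar genes and 2 transcription factors were lower, and the block moved no other list count by more than 1.5 times. With library totals 1 supply gene and 0 transcription factors were lower, and 0 transcription factors without a filter.

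Leaving out 1 library gave 1 to 4 LEA genes higher and 0 to 1 lower, 0 to 1 raffinose sugar genes higher and 0 to 3 lower, 0 to 3 alpha-galactosidases higher and 0 to 1 lower, 1 to 2 supply genes higher and 1 to 4 lower, 0 to 1 hydroxyproline-rich genes higher and 2 to 8 lower, and 1 to 4 transcription factors higher and 0 to 3 lower. The rank under drought was 225 to 455 for dehydrin and 104 to 199 for galactinol synthase 6. On counts not divided by length, the ratio of galactinol synthase 6 to dehydrin was 3.33, 2.50 and 2.33 in drought-stressed replicates 1, 2 and 3. Of the 5 profiles closest to dehydrin, 2 and 3 stayed with pseudocounts of 0.5 and 2. Depth limits the control values of galactinol synthase 6, which rest on 73 counts.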
